A study of Drosophila melanogaster with 3 samples.

Results

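The origin recognition complex (ORC) binds DNA at places where replication can begin and helps to load the MCM helicase there before S phase. In budding yeast it recognises a short sequence, whereas in Drosophila no fixed consensus directs it, and its sites have been linked to open chromatin. Chromosome arm 3L carries a chorion gene cluster, a locus that amplifies from a mapped origin in ovarian follicle cells. The position of that cluster relative to the sites below was not analysed here.

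The sites described are the ORC2 peaks on 3L that start below 22 Mb in the list that joins both replicates, 899 peaks of 5159 in that list (17.4%). They come from ChIP-seq, in which crosslinked chromatin was pulled down with a polyclonal rabbit serum raised to full-length ORC2, a subunit of the complex, and sequenced. The cells were asynchronous cultures of Kc167, a female Drosophila melanogaster line derived from late embryos, with the labelled genotype se/e. There were 2 ORC2 ChIP libraries, each from its own extraction. An input DNA sample from another extraction was not analysed here. Replicate 1 held 1609 peaks in the same interval and replicate 2 held 1129. Each of the 899 sites had at least 1 peak from each replicate under it, and its limits were the outer limits of those peaks. The joined list is therefore not a measurement of its own. A single cell line is sampled and the labels give no second condition. With 2 libraries of 1 group no test across samples was possible, so differences below are descriptions, and intervals cover counting error of peaks only. Read depth is unknown for both libraries.

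All positions are FlyBase release 5 coordinates, which on 3L run from the telomere towards the centromere. The last site inside the interval lay at 21948137 to 21948354 with a score of 2.51. The next 3L peak, outside it, lay at 22058888 to 22059061 with a score of 4.65. The score is the authors' own value per peak, in a unit that is not stated, and in the joined list it is the mean of the peaks joined, or at 4 sites the mean of the replicate means. Genes and base composition under the sites were not analysed here.

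ORC2 sites were unevenly placed along the arm, both in bins of 1 Mb and in windows of 100 kb. The interval held 40.9 sites per Mb (95% Poisson interval 38.2 to 43.6), while replicate 1 had 73.1 peaks per Mb and replicate 2 had 51.3. The 11 Mb nearer the telomere held 435 sites, or 39.5 per Mb, and the other 11 Mb held 464, or 42.2 per Mb. Both Poisson intervals overlapped (35.9 to 43.4 and 38.4 to 46.2 per Mb), and the difference between the telomeric and centromeric parts was not tested. Replicate 1 had 70.7 and 75.5 peaks per Mb in these parts, and replicate 2 had 48.2 and 54.5. The centromeric part was thus slightly the denser in both replicate lists as well.

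In bins of 1 Mb the counts ran from 22 to 64, with a median of 41.5. The richest bin was 3 to 4 Mb, with 64 sites (49.3 to 81.7), and it ranked first in each replicate list too, with 119 and 78 peaks. It was followed by 8 to 9 Mb with 55 sites, and by 1 to 2 Mb and 17 to 18 Mb with 54 each. The poorest bin was 13 to 14 Mb, with 22 sites (13.8 to 33.3), 46 peaks in replicate 1 and 34 in replicate 2. In the replicate lists the poorest bin was instead 6 to 7 Mb, with 41 and 32 peaks against 27 sites of the joined list. From 4 to 8 Mb every bin held between 27 and 31 sites, a broad sparse stretch of 28.8 sites per Mb. From 16 to 22 Mb every bin held between 41 and 54 sites, and this stretch averaged 47.7 per Mb. Both replicates ordered these stretches alike, with 53.3 against 82.7 peaks per Mb in replicate 1 and 34.5 against 61.7 in replicate 2. Both stretches were picked out after the counts were seen.

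In windows of 100 kb the contrast was sharper. The median window held 3 sites and the mean was 4.09. A group of 17 of the 220 windows (7.73%) held 10 or more sites, here called dense windows, and 29 windows (13.2%) held none. Over intervals of equal length on 2L, X and 3R together, 10% of windows were dense and 13.3% were empty. Dense windows made up 7.27% on 2L and 6.36% on 3R, near the 3L share, and 16.4% on X. The dense windows covered 1.7 Mb and carried 208 sites, or 23.1% of all. The richest 49 windows, 22.3% of the interval, held 451 sites, more than the other 171 together. The variance to mean ratio of the window counts was 2.95, where evenly random placement would give about 1, and it was 4.84 in replicate 1 and 3.54 in replicate 2.

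**Figure D1:**
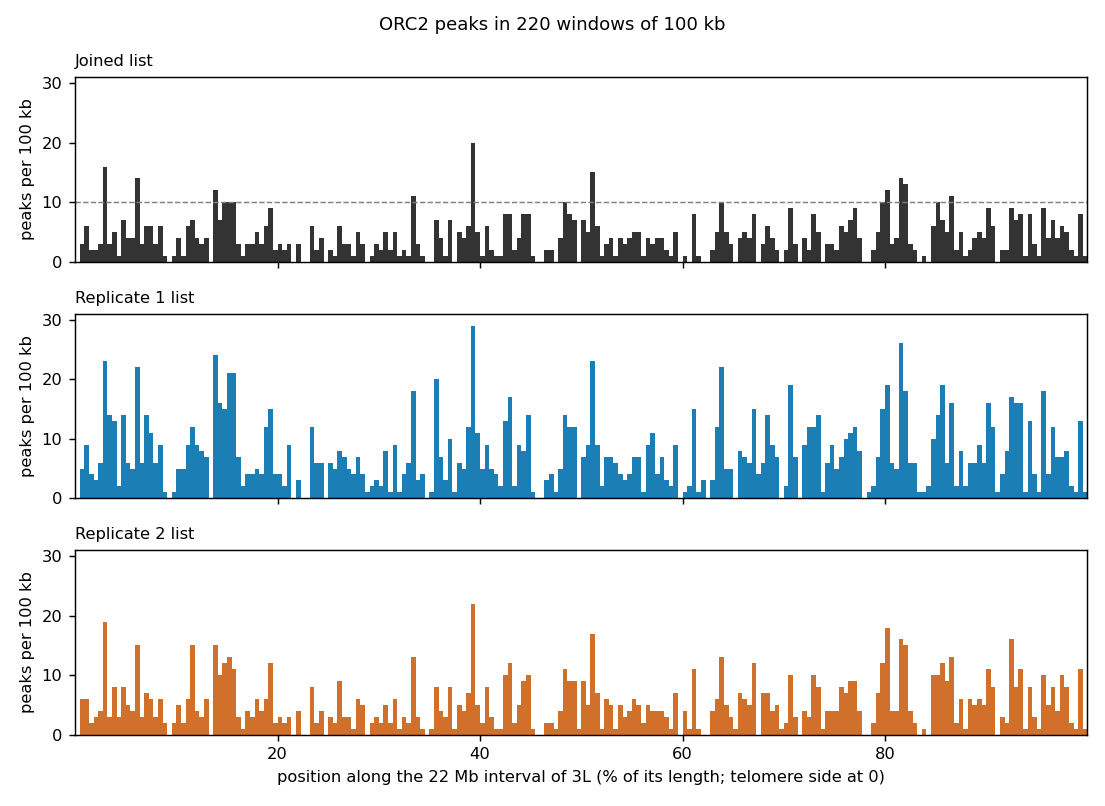
Peaks per window of 100 kb along the 22 Mb interval of 3L in the joined list (top), replicate 1 (middle) and replicate 2 (bottom), with position as a percentage of the interval and a dashed line at 10 sites. The tallest bar is the same window in all panels, with 20, 29 and 22 peaks, and the bars are higher in replicate 1, which has 1609 peaks against 1129 in replicate 2.

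The densest window of the arm was 8600001 to 8700000. Its 20 sites lay between 8627169 and 8698560, which is 4.89 times the mean window. It ranked first in both replicates, with 29 and 22 peaks. The window at 600001 to 700000 followed with 16 sites, 23 peaks in replicate 1 and 19 in replicate 2. The window at 11200001 to 11300000 held 15 sites, 23 and 17 peaks. Near the telomere, 1300001 to 1400000 held 14 sites, 22 and 15 peaks.

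Some dense windows were neighbours and formed longer stretches. The longest ran over 3 windows from 3200001 to 3500000 and held 30 sites, with 57 peaks in replicate 1 and 36 in replicate 2. A nearby window, 3000001 to 3100000, held another 12 sites. In the centromeric part, 17500001 to 17700000 held 22 sites and 17900001 to 18100000 held 27, with 44 and 31 replicate peaks in the latter. The remaining dense windows stood alone, and they started at 7300001 and 19000001 with 11 sites each and at 10600001, 14000001 and 18700001 with 10 each.

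The window counts of the replicate lists followed each other along the arm. Spearman's rho was 0.898 over the 220 windows, which share most of their peaks through the sites found in both replicates. Of the 20 richest windows of each replicate, 15 were common, 75% of each set. These figures describe the lists and carry no p-value, because the windows come from the same pair of libraries.

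The gaps between neighbouring sites ranged from 200 bp to 332 kb. The median gap between the end of one site and the start of the next was 9731 bp, and the quartiles were 2120 and 28371 bp. Of the 898 gaps, 158 (17.6%) were 1 kb or shorter and another 184 (20.5%) were over 1 kb and up to 5 kb. The most common class was over 5 kb and up to 20 kb, with 258 gaps (28.7%), followed by 165 (18.4%) of up to 50 kb and 95 (10.6%) of up to 100 kb. The remaining 38 gaps (4.23%) were over 100 kb and took up 29.6% of the interval. The mean gap, 24048 bp, was far above the median.

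The replicate lists had the same shape with shorter gaps. The median was 3738 bp in replicate 1, where 28.5% of gaps were 1 kb or less, and 7333 bp in replicate 2, where 20.3% were. Gaps over 100 kb numbered 28 and 31 and took up 19.4% and 23.9% of the interval. The shortest gap was 200 bp in all 3 lists on 3L, and also over every chromosome in each replicate list. No 2 peaks of a replicate were thus closer than 200 bp. In the joined list over every chromosome the shortest gap was 26 bp, so this floor holds within a replicate list only.

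**Figure D2:**
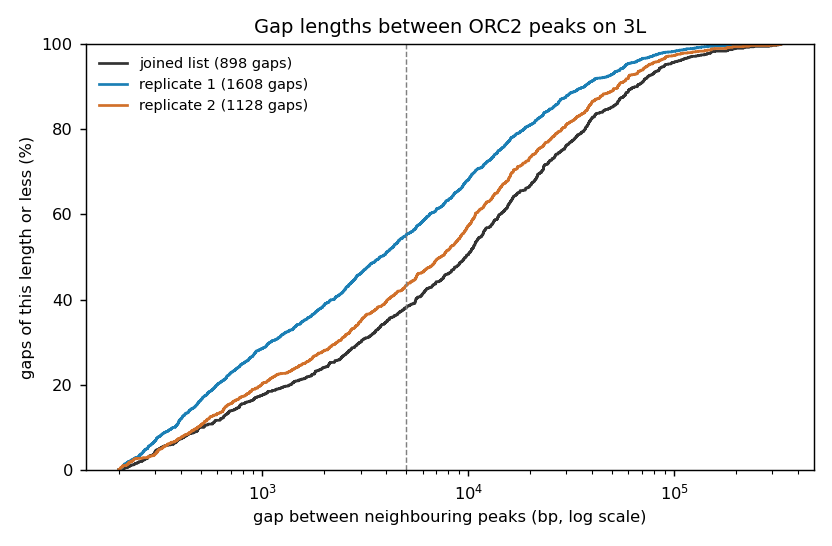
Cumulative share of gaps (percent) against gap length (bp, log scale) between neighbouring peaks on 3L in the joined list, replicate 1 and replicate 2, with a dashed line at 5 kb. All curves start at 200 bp, and the replicate 1 curve lies to the left, with a median of 3738 bp against 9731 bp in the joined list.

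Sites were grouped into chains, in which no gap was over 5 kb. A total of 533 sites (59.3%, exact 95% binomial interval 56.0 to 62.5%) lay in 191 chains of at least 2 sites, and 366 stood alone. Most chains were small. There were 115 chains of 2 sites, 41 of 3, 22 of 4 and 8 of 5. Only 5 chains were larger, with 6, 7, 7, 13 and 19 sites. In the replicate lists the longest chains had 28 and 21 peaks, and the shares of chained peaks were 77.2% and 65.0%.

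The longest chain ran over 40.4 kb, from 8660951 to 8701356. Its 19 sites covered 18.1% of that span, with gaps between 266 and 4356 bp. Replicate 1 had 26 peaks and replicate 2 had 21 over the same bases, so both resolved it into many separate peaks. The first site, 8660951 to 8661280, had the highest score of the chain at 6.37, with 7.16 in replicate 1 and 5.59 in replicate 2. The next highest were 4.06 at 8666047 to 8666160 and 3.90 at 8681668 to 8682328. The median score of the chain was 2.24, below the median of 3.002 over all 899 sites, while its median width of 342 bp was above the overall 182 bp. One edge site thus had a high score, and most of the others were wide and low.

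The second longest chain ran over 26.5 kb near the telomere, from 627936 to 654414. It held 13 sites covering 30.3% of the span, and each replicate had 16 peaks there. This chain contained the widest site of the arm, 634410 to 635874, which was 1465 bp wide in replicate 1 and 935 bp in replicate 2 with scores of 2.50 and 2.06. The neighbour at 633019 to 634147 was 1129 bp wide and lay 262 bp away. The site at 639410 to 640669 was 1260 bp wide and joined 2 peaks of replicate 1 with 1 of replicate 2. The highest scores of the chain stood at its ends, with 3.75 at 627936 to 628592 and 3.82 at 654290 to 654414. Its median score was 2.28 and its median width 517 bp.

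**Figure D3:**
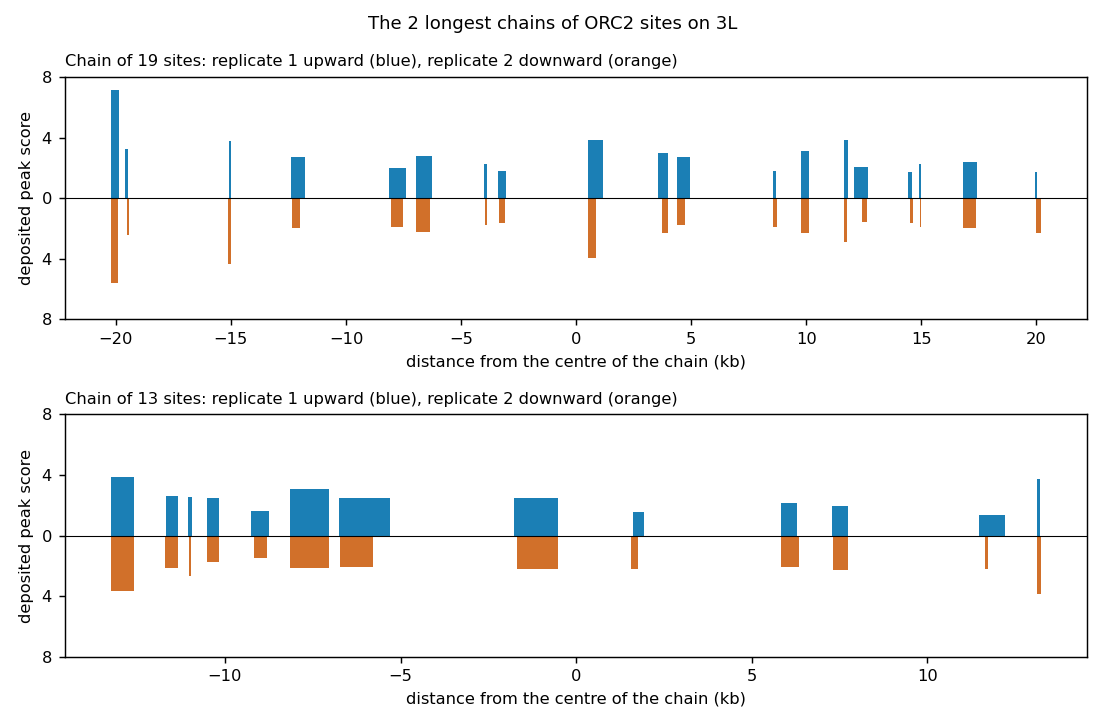
Replicate peaks under the sites of the 2 longest chains, drawn by distance from the chain's centre (kb), with bar width as the extent of the peak or joined peaks and bar height as the deposited score in replicate 1 (blue, up) and replicate 2 (orange, down). In the chain of 19 the first site reaches 7.16 and 5.59, and in the chain of 13 the end sites at 3.75 and 3.82 in the joined list stand above the wide sites between them.

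The chains of 7 were shorter and of different make. The one at 16995316 to 17009185 spanned 13.9 kb and had 10 peaks in replicate 1 and 7 in replicate 2, with a median score of 3.38. It ended directly at the second longest gap of the arm. The other, at 1295790 to 1307593, spanned 11.8 kb and held narrow sites of 120 to 170 bp, with 8 and 7 replicate peaks. The chain of 6 at 21016494 to 21027743 spanned 11.3 kb, with 9 and 6 replicate peaks.

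The longest gap between sites measured 332 kb, from 13506524 to 13838477. Replicate 1 had 3 peaks inside it, of 3 to 17 bp, and replicate 2 had none. The next, 323 kb from 17009186 to 17332388, held 4 peaks of replicate 1 and none of replicate 2. The third, 313 kb from 9961622 to 10275074, held no peak in either replicate. The fourth, 298 kb from 7504376 to 7802854, held 4 peaks of replicate 1 and 1 of replicate 2, the latter 3 bp wide. These 4 gaps of the joined list thus held 0 to 4 peaks of replicate 1 and at most 1 of replicate 2.

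Pairs of long gaps could lie side by side. Gaps of 198 kb (4627364 to 4825685) and 289 kb (4840851 to 5129392) were separated by 3 sites within 15.2 kb, so a stretch of 502 kb held those 3 sites alone. Across it replicate 1 had 5 unshared peaks and replicate 2 had 1 in the gaps. The gap of 219 kb at 16151767 to 16370926 held the most peaks of single replicates among the 10 longest, with 9 replicate 1 peaks of up to 224 bp and 2 replicate 2 peaks inside it. The gap of 244 kb at 1947945 to 2192100 went the other way, with no replicate 1 peak and 2 replicate 2 peaks of 35 and 12 bp. The other long gaps were 231 kb at 6257801 to 6488688, with 2 replicate 1 peaks, and 217 kb at 18236937 to 18453537, with 3, and neither held a replicate 2 peak. Together the 10 longest took up 12.1% of the interval and held 30 unshared peaks of replicate 1 and 6 of replicate 2. This is 11.3 and 2.25 per Mb, against 32.1 and 9.59 unshared peaks per Mb over the interval.

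Dense and sparse stretches alternated between 17 and 18.5 Mb. The chain of 7 and the 323 kb gap were followed by 22 sites in 17500001 to 17700000 and 27 in 17900001 to 18100000. The windows of 100 kb before, between and after these runs held 2 and 5, 3 and 4, and 3 and 2 sites, so no dense window there bordered an empty one. The 217 kb gap followed. It was closed by a single site at 18453538 to 18453654, which had another gap of 158 kb on its other side. That site had a score of 8.28, among the 10 highest of the arm, with 6.13 in replicate 1 and 10.4 in replicate 2. Sites with more than 50 kb free on both sides numbered 37 (4.12%), with a median width of 148 bp and a median score of 2.99.

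The highest scores of the joined list belonged to narrow sites. The highest score on the arm was 10.3, at 9435326 to 9435447, with 10.7 in replicate 1 and 9.93 in replicate 2. The site at 6257693 to 6257800 followed with 9.12, equal in both replicates to within 0.00967, and it lay at the edge of the 231 kb gap. The site at 11199062 to 11199186 had 9.06, from 10.2 and 7.92. At 17662760 to 17662875 the score was 8.81, from 9.04 and 8.57. The 10 highest-scoring sites were all between 49 and 176 bp wide, and 4 of them lay in chains, against 59.3% of all sites.

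Some of the other high-scoring sites were as even between replicates and some were not. The site at 8171534 to 8171582, the narrowest at 49 bp, had 8.31 in replicate 1 and 8.67 in replicate 2. At 9607168 to 9607308 the replicates gave 8.22 and 8.73. At 15007573 to 15007690 they gave 6.86 and 9.04. The site at 18453538, given above, differed most, by 4.29. The sites at 12565575 to 12565750 and 19342960 to 19343061 had joined scores of 7.68 each.

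The widest sites showed the opposite combination. The 10 widest were between 918 and 1465 bp, and their scores ran from 2.18 to 3.41. Of these 10, 8 lay in chains, as did 59.3% of all sites. After the widest site on the arm came 20393642 to 20394903, which was 1262 bp wide in replicate 1 with a score of 1.66, but 249 bp in replicate 2 with 3.10. By contrast the site at 10729887 to 10730914 was 1028 and 952 bp wide in the replicates, with scores of 3.91 and 2.90. Of 89 sites over 500 bp, 65 (73.0%) lay in chains, and none had a score over 5. A total of 23 sites joined more than 1 peak of a replicate, in 19 cases 2 peaks of replicate 2 under 1 of replicate 1.

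Across all sites the relation between width and score was weak. Spearman's rho was -0.19 over 899 sites, which share libraries and come from the same lists. With the sites of the joined list divided by width into 4 groups of 224 or 225, the median scores were 3.22, 3.17, 3.003 and 2.60 from the narrowest to the widest. The fall in that list thus lay mainly among the widest (306 bp and over). The labels and headers do not say how the score depends on the width of a peak.

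**Figure D4:**
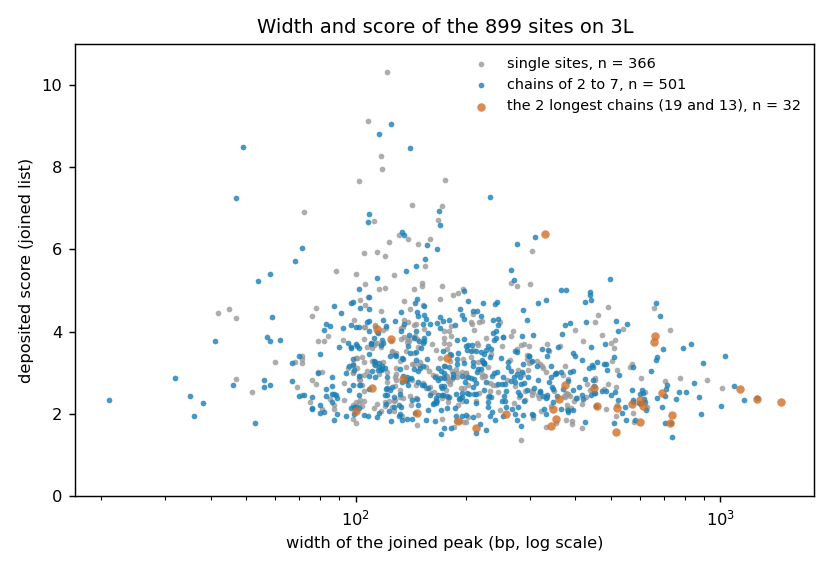
Width (bp, log scale) against deposited score for the 899 sites on 3L, coloured by whether a site stood alone, lay in a chain of 2 to 7 or lay in the 2 longest chains. Scores over 7 occur at sites under 300 bp, and the sites of the 2 longest chains lie mostly low and to the right.

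Lower-scoring sites were more clustered than higher-scoring ones. The 899 sites were split at the median score into equal lists of 449, leaving out the middle site, and each list was described by itself. In the lower list the median gap was 18374 bp and the variance to mean ratio 2.68, and 65 windows were empty. In the higher list these values were 26699 bp, 1.43 and 49 windows. The fullest window held 15 sites in the lower list and 8 in the higher list. Ranking by the replicate 1 score alone gave ratios of 2.53 and 1.48, and ranking by the replicate 2 score alone gave 2.70 and 1.38. Without the 2 longest chains the ratios were 2.26 and 1.40.

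The same split of each replicate's own full list went in the same direction. In replicate 1 the ratio was 3.76 for the lower and 2.29 for the higher 804 peaks. In replicate 2 it was 2.99 and 1.70 for 564 peaks each. The other arms compared, which did not include 2R, showed it as well. The ratios were 3.41 and 1.67 on 2L, 2.63 and 1.75 on X and 3.05 and 1.57 on 3R, so it is not particular to 3L. By this ratio, higher-scoring sites were thus the more evenly spread along each of these arms. The share of sites in chains differed less. On 3L it was 40.8% (36.2 to 45.5%) in the lower list and 34.3% (29.9 to 38.9%) in the higher list, with overlapping intervals. Without the 2 longest chains it was 37.2% against 33.9%. Split by width, the wider sites were the more clustered, with ratios of 2.55 and 1.60.

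Replicates were compared site by site within the interval. Of the replicate 1 peaks, 903 of 1609 (56.1%, exact 95% binomial interval 53.7 to 58.6%) had a counterpart in replicate 2, and of the replicate 2 peaks 918 of 1129 (81.3%, 78.9 to 83.5%). The background over all chromosomes and scaffolds was 57.8% and 80.5%, and over the 5 large arms it was 59.9% and 82%. The 3L shares thus lay near those of the whole lists. At the 876 sites built from 1 peak of each replicate, the replicate 2 peak was the narrower in 79.9%, with median widths of 120 bp against 170 bp. The median score ratio of replicate 2 to replicate 1 there was 0.9502, with quartiles of 0.821 and 1.09.

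Peaks found in only 1 replicate are not part of the 899 sites, yet they followed the same map. Replicate 1 had 706 of them and replicate 2 had 211. In windows with no site, replicate 1 had 0.655 unshared peaks per window, against 2.23 in windows with 1 to 4 sites, 4.83 with 5 to 9 and 7.65 in dense windows. Replicate 2 had 0.276, 0.606, 1.62 and 1.88. Unshared peaks of both replicates were thus more numerous where sites were. Spearman's rho between the sites and the unshared peaks over the 220 windows was 0.651 for replicate 1 and 0.464 for replicate 2, and between the unshared peaks of the replicates it was 0.436. All of these counts come from the same pair of libraries.

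**Figure D5:**
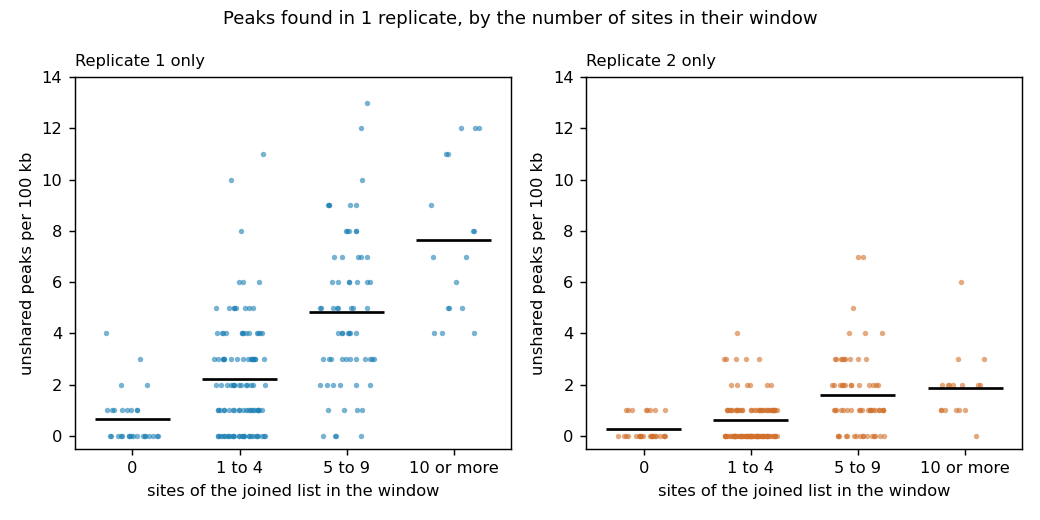
Peaks found only in replicate 1 (left) or only in replicate 2 (right) in each window of 100 kb, by the number of sites of the joined list in that window, with points as windows, spread sideways at random, and bars as means. The means run from 0.655 to 7.65 in replicate 1 and from 0.276 to 1.88 in replicate 2.

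Many unshared peaks lay next to a site. Of those of replicate 1, 427 (60.5%) had their midpoint within 5 kb of a site, and of those of replicate 2, 117 (55.5%), while 27.6% of the interval lay that close. Within 1 kb the shares were 29.5% and 24.6%, against 7.97% of the interval. By gap length, 533 of the 899 sites (59.3%) themselves had another site within 5 kb, and 285 had one within 1 kb. Closeness to a site was thus not particular to unshared peaks. The unshared peaks were narrow, with median widths of 68 and 33 bp against 172 and 121 bp for shared peaks. Their median scores were also lower, 2.23 and 2.31 against 3.09 and 2.88 for shared peaks, although a few had high scores. The highest replicate 2 score of the whole interval, 10.8, belonged to an unshared peak of 12 bp at 17426953 to 17426964. In replicate 1 the highest unshared score was 8.28, at 1368541 to 1368624, inside the dense window that starts at 1300001.

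In the joined list, set beside equal lengths of other arms, 3L was close in density to 2L and 3R and less dense than X. Arm 2R was not compared. The intervals matched in length only, and how near each came to its centromere was not compared. The first 22 Mb of 2L held 839 sites (38.1 per Mb, 35.6 to 40.8) and the 22 Mb of 3R nearest its telomere held 889 (40.4, 37.8 to 43.2). Both intervals overlapped that of 3L. The first 22 Mb of X held 1133 sites (51.5, 48.5 to 54.6), above the 3L interval. In replicate 1, 3L had 73.1 peaks per Mb (69.6 to 76.8), above 2L with 64.8 (61.5 to 68.2), and these intervals did not overlap. Replicate 1 had 67.7 (64.3 to 71.2) on 3R and 81.1 on X. Replicate 2 had 51.3 on 3L, 49.1 on 2L, 51 on 3R and 62.6 on X. In the joined list, median gaps were 9127 bp on 2L, 9026 bp on 3R and 6165 bp on X. The median site was 198, 197 and 195 bp wide there, against 182 bp on 3L. The fullest window of 3L, with 20 sites, equalled that of X, and 3R had one of 27. The median score was 3.002 on 3L, 2.79 on 2L, 2.85 on 3R and 2.86 on X. No header states that a score means the same on each chromosome, so these medians are set side by side only.

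Beyond 22 Mb the sites of the joined list were sparser. The 2.53 Mb from there to the last 3L peak held 42 sites, or 16.6 per Mb (12.0 to 22.4), below the 40.9 per Mb of the interval described. Replicate 1 had 79 peaks beyond 22 Mb and replicate 2 had 74, so the drop was smaller in replicate 2 than in the joined list.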

How the data were processed

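ORC2 ChIP-seq of asynchronous Kc167 cells in 2 replicates was used through the 3 peak lists that the authors deposited, 1 from each replicate and 1 that joins them. Coordinates follow FlyBase release 5, per the file headers, and PeakSeq is named in their source column as the peak caller. The deposited score of each peak has no stated unit. No label or header names the aligner, the read depth, the control or the calling threshold. On the 899 sites, the joined limits were the outer limits of the replicate peaks in 899, and the joined score was the mean of the joined scores in 895 and the mean of the replicate means in the other 4, within 0.0001.

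Gaps were counted in bases between peak ends. Windows of 100 kb and bins of 1 Mb started at position 1, and a peak belonged to the window of its midpoint. Sharing required 1 bp of overlap. Among replicate 1 peaks of the interval, 44.9% had a score that another peak there also had, and among replicate 2 peaks 40.1%. Sites named are the 10 highest-scoring, the 10 widest, the 10 fullest windows, all runs of dense windows, the 10 chains with the most sites, the 10 longest gaps and the highest unshared peaks, of which the text gives a part. Members, lists and settings were chosen with earlier results of these data known. Densities carry exact 95% Poisson intervals and shares exact (Clopper-Pearson) 95% binomial intervals, for counting error of peaks only. The available gene table follows release 6, so no genes or sequences were placed. The computations were tested on simulated lists. The software was matplotlib 3.10.9, scipy 1.17.1, pandas 2.3.3, numpy 2.4.6 and Python 3.11.15.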

Additional observations from a re-analysis of the deposited data

How the results depend on the processing

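Of 69 alternative values, 34 counted as moved from their main value. For most measures, moved meant a difference of at least the standard deviation between the 2 replicate values. For the shares found in the other replicate it meant outside their binomial interval, and for dense and empty windows more than 1.5 times apart. The replicate lists were among the alternatives. For every measure that has a joined value, that value itself lay outside the range of the 2 replicates. These were density, median gap, variance to mean ratio, dense and empty windows, median width and chained share. The joined list holds only sites with a peak from each replicate. The size of most measures depended on the list and the score threshold. Without each replicate in turn, density ranged from 51.3 to 73.1 per Mb, the median gap from 3738 to 7333 bp, the variance to mean ratio from 3.54 to 4.84, dense windows from 35 to 59, empty windows from 17 to 21, the median width from 102 to 115 bp and the chained share from 65.0 to 77.2%. Sites at or above the median score gave 20.5 per Mb, a median gap of 26587 bp, a ratio of 1.44, 0 dense and 49 empty windows, a width of 160 bp and 34.2% in chains. This setting keeps about 1 site of each 2, which itself lowers density and window counts. Counting sites 1 kb or less apart as 1 gave a median gap of 13654 bp, 7 dense windows, a width of 208 bp and 41.7% in chains. Windows of 50 kb and 200 kb, with the dense threshold scaled, gave 53 and 3 dense and 128 and 3 empty windows. Chain gaps of 2 and 10 kb gave 40.5% and 72.9% in chains. The replicate 1 share found in replicate 2 was 38.6% with 50% reciprocal overlap, 64.5% with midpoints within 500 bp, 59.95% for peaks of at least 50 bp and 73.4% at or above the median score. For replicate 2 these were 55.0, 87.4, 88.6 and 87.1%. The variance to mean ratio stayed above 1 in each setting run, and it was 2.60 without the 2 longest chains, an alternative added after seeing the data. No paired analysis was possible because the input came from another extraction than either ORC2 library and has no peak list here. Read depth is unknown, so peaks missing from a replicate cannot be set against it.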
